A study of Rattus norvegicus with 3 samples.

Results

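The GDNF family is a small group of secreted trophic factors and their receptors, and 7 of its genes are described here: the co-receptor genes Gfra1, Gfra2 and Gfra3, the receptor kinase gene Ret, and the ligand genes Gdnf, Artn and Nrtn. They were chosen by name, and each matched 1 row of the 17337 genes in the deposited table. RNA was sequenced from 3 libraries of cultured Schwann cell precursors, primary glia grown from rat embryos' dorsal root ganglia, wild type in genotype, in a modified Sato medium on a DMEM base. The cells had no treatment, no second group was analysed here, and the age of the embryos is not given in the labels. Library totals were 14139074 to 15309526 counts. Whether separate cultures stand behind the 3 libraries is not stated in the labels, so SDs and p-values cover the spread among these libraries alone, and that spread may be technical.

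Each ligand of this family is a secreted dimer that is held at the cell surface by a co-receptor with a lipid (GPI) anchor and no kinase of its own. The ligand and co-receptor together bring RET, a receptor tyrosine kinase, into a signalling complex. GDNF prefers the co-receptor encoded by Gfra1, neurturin (Nrtn) that of Gfra2, and artemin (Artn) that of Gfra3. The co-receptor of Gfra1 can also present GDNF to the adhesion molecule NCAM in cells with little RET, Schwann cells among them. In the dorsal root ganglion, RET and the co-receptors are best known from sensory neurons, and glia of the nerve are known as a source of the ligands.

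Of the 16 Schwann cell precursor markers listed for a check of the label, 15 were matched in the table, and all 15 were above 1 TPM (counts over gene length, scaled to a sum of 1000000 in each library) by limma, as were 78.4% of all genes tested. S100b, Ednrb and Ngfr were among the highest, at 2061, 1414 and 655 TPM. Fibroblast markers were also abundant, with 10 of 11 matched genes above 1 TPM and a summed level of 9531 to 9724 TPM, led by Col1a1, Col3a1, Dcn and Postn. The exception was Col1a2, with 12, 7 and 7 counts and a mean of 0.137 TPM, where Col1a1 was at 3842 TPM. The cause of that gap was not tested. Sensory neuron markers were present at a lower summed level of 942 to 962 TPM. In bulk RNA, fewer cells of a type and less RNA per cell cannot be told apart, so no value below is assigned to a cell type.

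The stretches upstream of 3 start sites are shown because these genes span the family's range: Gfra1 had the highest level of all members, Artn the highest of the ligands and Gdnf the lowest of all. Each is the 250 bases before the start given by RefSeq in the assembly GRCr8, 5′ to 3′ on the gene's strand. They lie at chr1:267555812-267556061 (minus strand), chr5:136753458-136753707 (minus strand) and chr2:58621077-58621326 (plus strand) in the order printed. Capitals mark the GC box GGGCGG or its reverse complement CCGCCC, and the TATA box TATAAA or its reverse complement TTTATA.
Gfra1: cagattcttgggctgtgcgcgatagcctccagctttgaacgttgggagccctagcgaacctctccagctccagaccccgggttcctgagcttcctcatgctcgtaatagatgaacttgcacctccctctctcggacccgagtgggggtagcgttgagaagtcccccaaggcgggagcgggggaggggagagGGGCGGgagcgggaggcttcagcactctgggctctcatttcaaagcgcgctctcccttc
Artn: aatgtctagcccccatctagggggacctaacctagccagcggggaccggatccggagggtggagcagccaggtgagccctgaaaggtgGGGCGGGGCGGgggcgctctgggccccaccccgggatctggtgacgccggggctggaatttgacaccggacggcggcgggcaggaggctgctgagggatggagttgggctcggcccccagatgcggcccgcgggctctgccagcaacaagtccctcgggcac
Gdnf: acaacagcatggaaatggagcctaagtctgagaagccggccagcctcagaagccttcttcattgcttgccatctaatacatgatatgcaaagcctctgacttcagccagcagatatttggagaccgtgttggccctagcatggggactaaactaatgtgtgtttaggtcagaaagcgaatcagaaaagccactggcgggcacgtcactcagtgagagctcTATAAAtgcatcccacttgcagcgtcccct

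Sequences of 6 of the 7 members were matched by symbol. The Gfra1 stretch held 1 GC box and 15 CpG pairs at a GC content of 62%, and that of Artn held 2 GC boxes, which overlap by their end bases, and 18 CpG pairs at 70.8%. The Gdnf stretch held no GC box, 6 CpG pairs at 49.6% and a TATA box whose first base lies 30 bases before the start. Upstream of Gfra3 there were 3 GC boxes and 18 CpG pairs, and upstream of Ret 25 CpG pairs at 72.8% with neither box. The Nrtn stretch also had neither box, with 4 CpG pairs. Over all 33469 stretches of the same length in the RefSeq table, 30.5% held a GC box and 12.9% a TATA box on either strand, and the medians were 5 CpG pairs and 51.2% GC. The SOX core ACAAT (reverse complement ATTGT), in 30.0% of all stretches, and the AP-1 site TGANTCA, in 6.34%, were searched on both strands and had no match in the 6 stretches. These matches describe letters in the window and are not evidence of binding.

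**Figure D1:**
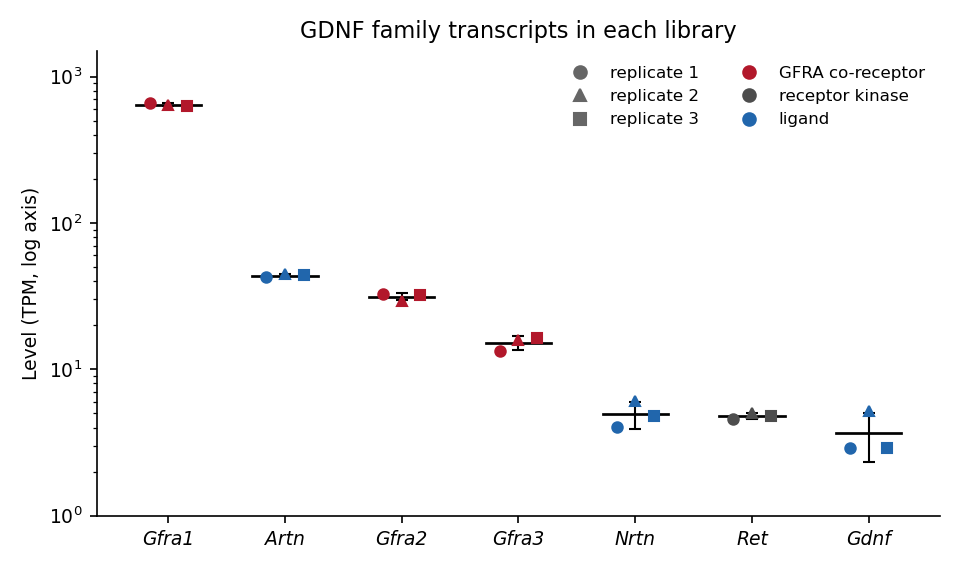
TPM (log axis) of the 7 GDNF family genes in each library. Symbols are replicates 1 to 3, the horizontal line is the mean and the error bar is 1 SD (n = 3). Gfra1 lies at 633 to 656 TPM, Artn, Gfra2 and Gfra3 lie between 13.2 and 44.5 TPM, and Nrtn, Ret and Gdnf lie between 2.90 and 6.07 TPM.

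Among the co-receptors, Gfra1 was far more abundant than the others. Gfra1 (NCBI gene 25454; rn6 chromosome 1, 279207586 to 279572536, minus strand, 10 exons, 3602 listed exon bases) had 17470, 15773 and 15683 counts, or 656, 637 and 633 TPM in replicates 1, 2 and 3. Its mean was 642 ± 12.8 TPM (SD, n = 3), which ranked 220 of the 17337 genes. The 3 libraries lay close together, the highest being 1.04 times the lowest.

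Gfra2, the co-receptor gene for neurturin (NCBI gene 25136; chromosome 15, 52557607 to 52648973, plus strand, 10 exons), had 669, 564 and 617 counts. Its TPM was 32.5, 29.5 and 32.2, a mean of 31.4 ± 1.68, with replicate 2 the lowest. Gfra3, the co-receptor gene for artemin (NCBI gene 84422; chromosome 18, 27491860 to 27520133, minus strand, 8 exons), had 200, 223 and 232 counts. Its TPM was 13.2, 15.9 and 16.5, a mean of 15.2 ± 1.72, with replicate 1 the lowest. The levels of the 3 co-receptors did not overlap between genes in any library. Gfra1 made up 93.2 ± 0.333% of their summed TPM, Gfra2 4.56 ± 0.213% and Gfra3 2.21 ± 0.285%.

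Ratios between genes were taken within each library as log2 of TPM + 0.1 and tested with limma for each member against every other gene with a count. Of these 93408 ratios, 95.4% differed from 0 at a Benjamini-Hochberg adjusted p under 0.05 (95.9% with limma variances taken gene by gene), so passing is the rule for any pair of genes here, and the size of a ratio says more than its call. Gfra1 exceeded Gfra2 by 4.35 ± 0.07 log2 units (SD, n = 3), or 20.4-fold. It exceeded Gfra3 by 5.40 ± 0.20, or 42.2-fold. Gfra2 exceeded Gfra3 by 1.05 ± 0.21, or 2.07-fold, in 3 of 3 libraries. All of these ratios passed. Without division by gene length Gfra1 to Gfra3 was 6.21 and still passed.

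The shared signalling subunit was low beside its main co-receptor. Ret (NCBI gene 24716; chromosome 4, 150202174 to 150244380, minus strand, 6203 listed exon bases) had 211, 215 and 205 counts. Its TPM was 4.60, 5.04 and 4.80, a mean of 4.82 ± 0.218, and ranked 9360 of 17337 genes. Gfra1 exceeded Ret by 7.03 ± 0.09 log2 units, or 131-fold, and the ratio lay between 6.95 and 7.12 in the 3 libraries. Gfra2 exceeded Ret by 2.68 ± 0.14 and Gfra3 by 1.63 ± 0.13. Every co-receptor was thus above Ret in 3 of 3 libraries, and these ratios passed. Without division by length Gfra1 to Ret was 6.27 and Gfra2 to Ret 1.54, and both passed. The Gfra3 to Ret ratio rests on gene length, since both genes had similar counts and the listed exons of Ret are longer: without division by length it was 0.05 and did not pass (limma adjusted p = 0.733).

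Of the ligands, Artn was the most abundant. Artn, encoding artemin (NCBI gene 362572; chromosome 5, 136759717 to 136762986, minus strand, 5 exons), had 420, 407 and 403 counts. Its TPM was 42.7, 44.5 and 44.0, a mean of 43.7 ± 0.908. All 3 libraries were close, with the highest at 1.04 times the lowest.

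Nrtn, encoding neurturin (NCBI gene 84423; chromosome 9, 10305470 to 10306597, plus strand, 2 exons and 671 listed bases), had only 20, 28 and 22 counts. Its TPM was 4.03, 6.07 and 4.76, a mean of 4.96 ± 1.03, with a 95% exact Poisson interval of 3.86 to 6.26 TPM from the 70 counts in total. Gdnf (NCBI gene 25453; chromosome 2, 56887987 to 56910238, plus strand, 3 exons and 700 listed bases) had 15, 25 and 14 counts. Its TPM was 2.90, 5.19 and 2.91, a mean of 3.67 ± 1.32, with an interval of 2.75 to 4.78 from 54 counts. Replicate 2 was the highest library for both genes. These intervals take in counting error and nothing else, because they are made from the summed counts alone. The reads have no molecular identifiers.

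Artn exceeded Gdnf by 3.59 ± 0.45 log2 units, or 12.1-fold, and Nrtn by 3.14 ± 0.26, or 8.79-fold, and both ratios passed. Without division by length they were 4.45 and 4.07 and passed too. Artn made up 79.8 to 86.0% of the summed TPM of the 3 ligands. Gdnf and Nrtn were not separated: Gdnf was lower in 3 of 3 libraries, but the ratio of -0.46 ± 0.24 did not pass (limma adjusted p = 0.242). Without replicate 2 it was -0.58 and passed (limma adjusted p = 0.00184).

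**Figure D2:**
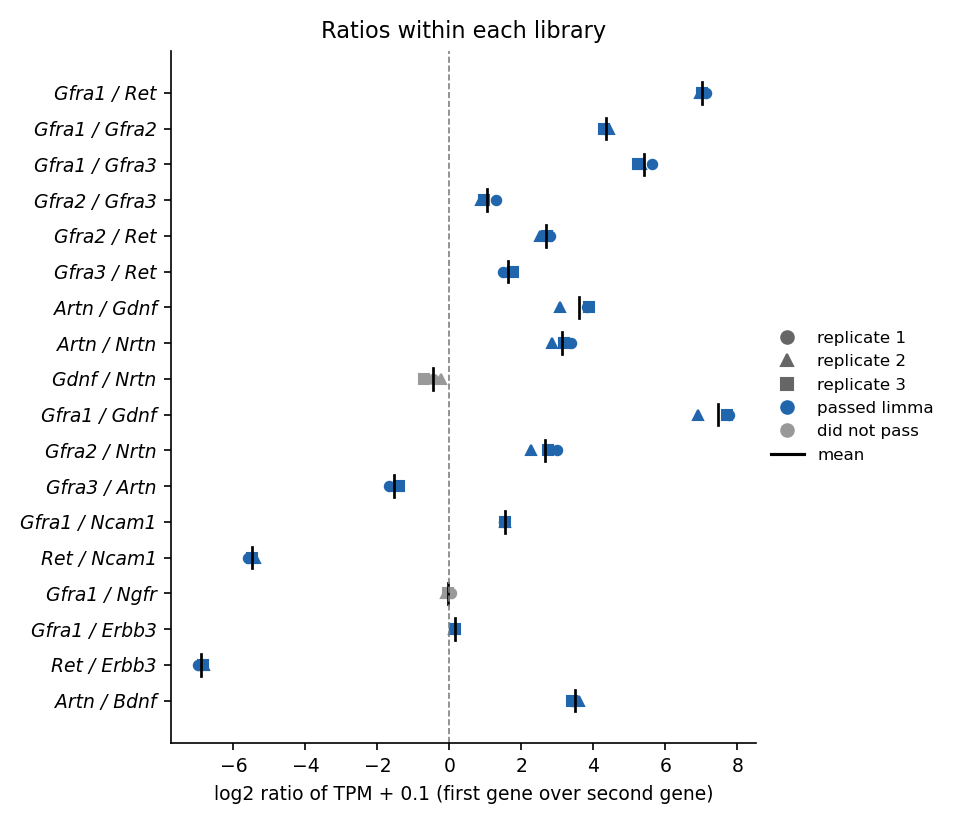
Log2 ratio of TPM + 0.1 for 18 gene pairs, first gene over second, in each of the 3 libraries; the black bar is the mean and the dashed line is equal level. The 2 grey pairs, Gdnf to Nrtn at -0.46 and Gfra1 to Ngfr at -0.03, did not pass in limma, and Gfra1 to Gdnf at 7.47 is the largest ratio shown.

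Placed in order by TPM, the members ran Gfra1, Artn, Gfra2, Gfra3, Nrtn, Ret and Gdnf. Artn stood above its neighbour Gfra2 by 0.48 log2 units of TPM, with Artn higher in 3 of 3 libraries. That order rests on gene length, since Gfra2 had more counts than Artn in every library. The counts were 669, 564 and 617 over 2783 listed bases for Gfra2, and 420, 407 and 403 over 1331 for Artn. Gfra2 stood above Gfra3 as given earlier. Gfra3 exceeded Nrtn by 1.61 ± 0.21. The last 3 were not separated with certainty by TPM. The closeness of Ret to Nrtn and Gdnf rests on gene length. Ret had 211, 215 and 205 counts over 6203 listed bases. Nrtn had 20, 28 and 22 over 671, and Gdnf 15, 25 and 14 over 700. Ret and Nrtn differed by -0.02 ± 0.23 (limma adjusted p = 0.866), Nrtn being higher in replicate 2 and Ret in replicates 1 and 3. Ret exceeded Gdnf by 0.44 ± 0.42, which passed in limma as designed (adjusted p = 0.00233) but not with limma variances taken gene by gene (adjusted p = 0.0601), and the ratio ran from -0.04 to 0.71 over the libraries.

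Ligands and their preferred co-receptors were also set side by side. Gfra1 exceeded Gdnf by 7.47 ± 0.48 log2 units, or 177-fold, and Gfra2 exceeded Nrtn by 2.66 ± 0.37, or 6.31-fold. For artemin the order was the opposite, with Gfra3 below Artn by a log2 ratio of -1.53 ± 0.14, the ligand being 2.88-fold higher. All 3 ratios passed and had 1 direction in 3 of 3 libraries. Without division by length they kept their direction and passed, at 9.75, 4.65 and -0.91. Such ratios assume that the listed lengths are right and that reads of the genes compared were recovered equally well, and neither was measured.

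Against a level of 1 TPM, all 7 members were above by limma on log2(TPM + 1), where 78.4% of the 13345 genes tested were above and 17.8% were below, so these calls do not set the members apart. The smallest difference was that of Gdnf, 1.19 ± 0.14 log2 units (SE, limma adjusted p = 0.000109), followed by Ret at 1.54 and Nrtn at 1.56. The median of the members' mean TPM was 15.2, and that of all genes tested was 21.7.

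Spread between libraries differed among the members. The coefficient of variation was 1.99% for Gfra1 and 2.08% for Artn, 4.53% for Ret, 5.36% for Gfra2 and 11.3% for Gfra3. It reached 20.8% for Nrtn and 36.1% for Gdnf. Counting error alone gives about 4.94% for Artn, 6.90% for Ret, 20.7% for Nrtn and 23.6% for Gdnf, so only the high count genes could show small differences at this depth. Gfra1, Gfra2 and Gfra3 varied by more than their counting errors of 0.783%, 4.03% and 6.77%, and Gdnf also by more than its own. With 3 libraries such a spread is itself uncertain, and the excess over counting error was not tested. In the rn6 table, no exon of another listed gene overlapped an exon of any member, and each member was listed at 1 place.

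Of the 4 other genes of the family, 3 were at levels near those of Ret and the low ligands and 1 had no count. Gfra4, the co-receptor gene for persephin, was at 6.87 ± 1.80 TPM, and Pspn, encoding persephin, at 4.11 ± 0.172. Gdf15, encoding a more distant ligand, was at 6.81 ± 1.19. These 3 were above 1 TPM by limma, as were 78.4% of all genes tested. Gfral, the gene for the GDF15 receptor, had no count in any library, where 3 counts would be 0.343 to 0.368 TPM.

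Of the 5 matched genes for receptors that can act with GFRA1 or GDNF apart from RET, Sorl1 was below Ret in TPM and the others were far above it. Ncam1, encoding the adhesion molecule NCAM, was at 221 ± 6.16 TPM. Gfra1 exceeded it by 1.54 ± 0.02 log2 units, and Ret was below it by a log2 ratio of -5.49 ± 0.10, which is 45.0-fold (-4.55 without division by length). Sdc3, encoding the heparan sulfate proteoglycan syndecan-3 that binds GDNF, was at 387 ± 6.57 TPM, and Itgb1, encoding an integrin subunit, and Cdh2, encoding N-cadherin, were at 964 and 195 TPM. Of this list 4 were above 1 TPM, as were 78.4% of all genes tested. The exception was Sorl1, a sorting receptor gene, at 1.001 ± 0.189, which did not pass.

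Ligands of the family are made as precursors that proprotein convertases cut. Furin was the highest convertase gene at 223 ± 2.83 TPM, followed by Pcsk7 at 26.3 and Pcsk5 at 5.49. Pcsk6, at 0.352 ± 0.0938, was below 1 TPM by limma.

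Of 35 matched genes for adaptors and effectors that RET shares with other receptor kinases, 33 were above 1 TPM, where 78.4% of all genes tested were above. The list's median was 55.9 TPM, against 21.7 over all genes tested. The highest were the ubiquitin ligase gene Nedd4 at 1030.1, the ERK1 gene Mapk3 at 489, the kinase gene Akt1 at 361 and Pdlim7, encoding the RET-binding protein Enigma, at 282 TPM. The docking protein genes Shc1, Gab1 and Frs2, which link RET to the RAS and PI3K branches, were at 171, 106 and 29.9 TPM. Dok6, an adaptor gene, was lower at 5.23, Grb7 at 0.950 did not pass, and Cblc at 0.109 was below 1 TPM.

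All 10 matched genes of the list of transcripts known to respond to GDNF and RET in other tissues were above 1 TPM, a call that 78.4% of all genes tested share, with a median of 33.6 TPM against 21.7. The highest were Dusp6 and Spry2, feedback inhibitors of ERK signalling, at 99.0 ± 1.69 and 90.0 ± 2.54 TPM, followed by the transcription factor gene Etv5 at 72.8 and Spry1 at 60.4. These genes respond to many receptor kinases, and no stimulated sample was compared, so their levels say nothing of whether RET was active. Of the regulators of Ret, Sox10 and the retinoic acid receptor gene Rara were at 612 and 131 TPM, followed by Rarb at 19.1 and Pax3 at 12.9, while Nkx2-1 and Tlx2 had no count. Of the 8 matched regulators 6 were above 1 TPM, so these calls do not set the regulators apart from the 78.4% of all genes tested.

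**Figure D3:**
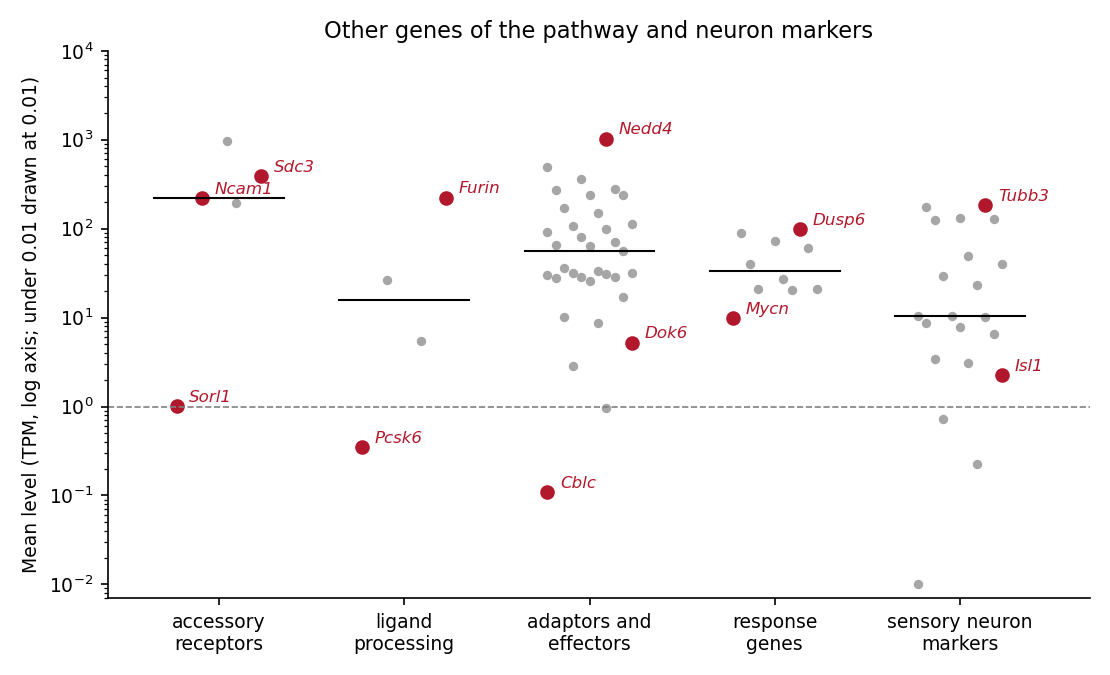
Mean TPM over 3 libraries (log axis) of each matched gene in 4 lists of pathway genes and in the sensory neuron list; a point is a gene, the black line is the list median, the dashed line is 1 TPM and red points are labelled genes. Most adaptor, effector and response genes lie above 10 TPM, and Sorl1, Pcsk6 and Cblc lie at or under 1 TPM.

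Among 33 matched receptors and co-receptors without a kinase domain, Gfra1 ranked 2, Gfra2 18 and Gfra3 23. The gene nearest to Gfra1 in mean log2(TPM + 1) over the 3 libraries was Ngfr, encoding the neurotrophin receptor p75, at 655 ± 20.7 TPM. The log2 ratio of Gfra1 to Ngfr was -0.03 ± 0.07 and did not pass (limma adjusted p = 0.386); without division by length it was 0.12 and passed (limma adjusted p = 1.44e-05). Next was the glypican gene Gpc1 at 441 ± 16.4. The genes nearest to Gfra2 were Sdc1 and Gpc4, at 25.8 and 25.5 TPM, and those nearest to Gfra3 were Lifr and Gpc2, at 15.1 and 15.8. Gfra1 was also above Erbb3, the kinase-impaired neuregulin receptor of Schwann cells at 581 TPM, by 0.14 ± 0.01 log2 units (limma adjusted p = 0.000328). That order rests on gene length as well, since the ratio was -0.085 without division by length.

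Among 51 matched receptor tyrosine kinases, Ret ranked 31, next to the angiopoietin receptor gene Tek at 4.69 ± 0.211 and the ephrin receptor gene Epha4 at 4.40 ± 0.140. The median of that list was 7.75 TPM. Ret was below Erbb3 by a log2 ratio of -6.89 ± 0.09, or 118-fold, which passed in limma.

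Among 54 matched secreted trophic ligands, Artn ranked 16, Nrtn 35 and Gdnf 39. Artn lay next to Igf1 at 40.0 ± 1.65 and Clcf1, encoding a ligand of the CNTF receptor, at 39.9 ± 1.28. Nrtn lay next to Tgfb2 and Fgf1, at 5.28 and 5.35, and Gdnf next to Fgf9 and Bdnf, at 3.62 and 3.84 TPM. Artn exceeded the neurotrophin gene Bdnf by 3.48 ± 0.11 log2 units, or 11.1-fold, and this ratio passed. Without division by length it was 1.31 and still passed. The median of the ligand list was 13.95 TPM, so Artn lay above it and Nrtn and Gdnf below it.

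**Figure D4:**
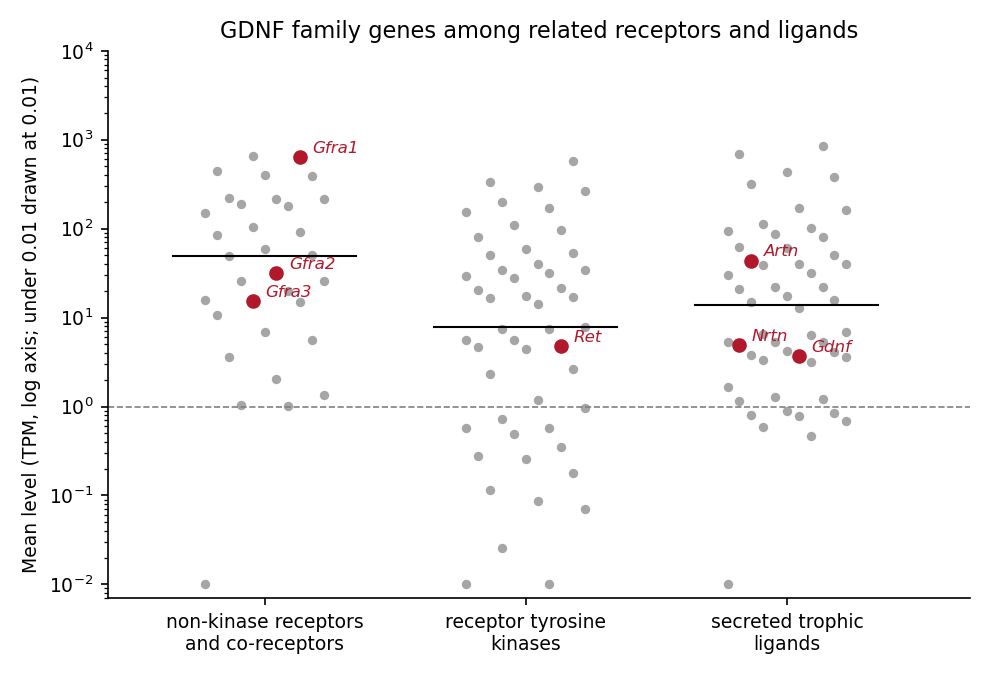
Mean TPM over 3 libraries (log axis) of each matched gene in lists of non-kinase receptors, receptor tyrosine kinases and secreted trophic ligands; GDNF family members are red, the black line is the list median and the dashed line is 1 TPM. Gfra1 at 642 TPM lies near the top of its list, Ret at 4.82 TPM lies under the median of 7.75, and Artn at 43.7 TPM lies above the median of 13.95.

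Markers of cells in which the family is known to act stood beside these levels as follows. Of 21 matched sensory neuron markers, 18 were above 1 TPM, where 78.4% of all genes tested were above. They were led by Tubb3, Prph, Nefl and Nefm at 185, 176, 130.1 and 129 TPM. Ntrk2 at 0.715 and Runx3 at 0.228 were below 1 TPM, and Mrgprd had no count. Ret, Gfra1, Gfra2 and Gfra3 are genes of sensory neurons too, and the part of neuronal RNA in their levels was not tested. Of 9 matched markers of enteric and sympathetic cells, where Ret is also prominent, 2 were above 1 TPM, with Elavl3 the highest at 4.73, a summed level of 6.94 to 7.996 TPM, and no count for Phox2a and Hand2. The part of fibroblasts in the levels of Gfra1, Artn and Gdnf was likewise not tested.

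Macrophage markers summed to 33.6 to 38.6 TPM, led by Lyz2 at 9.85, Tyrobp at 8.35, Cd68 at 5.10 and Cd14 at 4.77. Of these 10 markers 6 were above 1 TPM and 3 below, where 78.4% of all genes tested were above and 17.8% below. Of 10 endothelial and mural markers, 6 were above and 4 below 1 TPM, beside the same shares of all genes, with a sum of 799 to 848 TPM. The contractile genes Tagln and Acta2 made up most of it, at 466 and 317. Of the endothelial genes, Cdh5 and Emcn were at 16.6 and 13.7, whereas Kdr, Vwf, Tie1 and Pecam1 were below 1 TPM, at 0.178, 0.134, 0.0860 and 0.0693.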

How the data were processed

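RNA was measured in 3 libraries of 1 group, made with a stranded poly(A) mRNA kit per the labels' protocols. The authors deposited raw counts per gene, gene lengths, counts over length, and TPM, which recomputed from counts and lengths within 0.0005. The submitters' processing notes name STAR 2.5.2b, Subread and rn6; for the annotation, strand setting and multiply mapped reads the setting is not given in the sources used here. Another kind of value the authors deposited, counts over length (RPK), was not used, nor were 6 columns of totals and 2 rows without a gene name. Count and TPM columns were matched to libraries by title and number.

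Levels were tested with limma 3.58.1 (R 4.3.3; two-sided, moderated with a trend, 1 group) on log2(TPM + 1) against 1 TPM in 13345 genes with a count. Ratios used log2(TPM + 0.1), each member against every other gene, with Benjamini-Hochberg adjustment over all 93408 ratios. The ratios of 1 member share its noise, so their p-values are not exact and can be too small. For Gdnf to Nrtn the SE was the larger one, 0.387 against 0.213 with limma variances taken gene by gene. The SE also depends on which gene is taken as the member, at 0.166 for Artn to Gdnf and 0.366 for Gdnf to Artn. The fit with variances taken gene by gene was chosen after the data were seen, and is given beside calls it changes. Scripts were tested on simulated data. Alternatives were other pseudocounts, filters, thresholds and variance estimates, edgeR 4.0.16 (TMM factors, and a quasi-likelihood test on counts), ratios without length, and leaving out each library. Of 273 list symbols, 260 were matched. Named genes are the members, the fixed pairs, the 2 nearest genes per member, and the highest 4, under 1 TPM or uncounted genes of lists; Dok6, Shc1, Gab1, Frs2 and Grb7 outside the highest 4 were chosen after their values were seen. A few genes and pairs under this rule are not reported here. Members and lists were chosen with earlier results of these data known.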

Additional observations from a re-analysis of the deposited data

How the results depend on the processing

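All 7 members stayed above the level tested under the 12 alternatives to the test against 1 TPM, edgeR included. That level was 1 TPM, or 0.5 TPM and 2 TPM where the threshold itself was changed. Without replicate 2 the mean of Gdnf was 2.90 TPM. The number of genes below 1 TPM was 2374, which became 6235 when every listed gene was tested and 1372 when genes under a mean of 0.1 TPM were left out, because near-silent genes enter or leave the test. Ratios without division by gene length (CPM + 0.1) gave 0.051 for Gfra3 to Ret, which no longer passed. They changed sign to 0.12 for Gfra1 to Ngfr, which then passed, and to -0.085 for Gfra1 to Erbb3, which passed in both directions. The alternative's own construction shows that gene length decides these. Artn to Gfra2, Ret to Nrtn and Ret to Gdnf are not given without length, and they depend on it too, as their counts above show. With single libraries left out, Gdnf to Nrtn ran from -0.58 (without replicate 2, past the threshold) to -0.34, and Gfra1 to Ngfr from -0.064 to 0.0022; the cause was not tested. With variances taken gene by gene, 16 of the 18 pairs passed, as in the fit as designed. No paired analysis was possible because there is 1 group. Depth limits Gdnf and Nrtn, with 54 and 70 counts in total.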
